A study of Rattus norvegicus with 2 samples.

Results

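The microRNAs (miRNAs) miR-23, miR-24 and miR-27 were followed in small RNA sequencing of rat hippocampus after status epilepticus (SE), a prolonged and self-sustaining seizure. The rows taken were those named rno-miR- followed by the number 23, 24 or 27, with any letter, copy or arm suffix. This gave 8 of the 390 rows of the deposited count table, namely rno-miR-23a-3p, rno-miR-23b-3p, rno-miR-23b-5p, rno-miR-24-3p, rno-miR-24-2-5p, rno-miR-27a-3p, rno-miR-27b-3p and rno-miR-27b-5p, written below without the prefix for rat. The experimental group were Wistar rats aged 5 months in which SE was induced by stimulating the right amygdala for 20 min, with tissue taken 24 hours later. The control group were Wistar rats of the same age that carried electrodes and were sham stimulated, which the study's methods describe as handling without current. According to those methods all rats were male, were perfused with saline, and gave the left hippocampus, and the RNA of each group was pooled into 1 library. Each group comprised 6 rats, and how many entered each pool is not stated. No spread between animals can therefore be set against any difference below. The depth was 5678090 counts in the experimental library and 6703056 in the control library over the whole table.

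A miRNA is cut from the arms of a hairpin precursor, and each arm, named 5p or 3p, can be loaded into an Argonaute protein and guide it to messenger RNAs. Pairing to the target rests mostly on the seed, the bases from position 2 to position 8. MiR-23, miR-27 and miR-24 are made together from paralogous clusters, here called a (miR-23a, miR-27a, miR-24-2) and b (miR-23b, miR-27b, miR-24-1), and are best known from vessels, muscle, fat and blood cells. In neurons miR-23b and miR-27b have been described as inhibitors of Apaf1, which assembles the caspase-activating apoptosome. The known targets of miR-23 include glutaminase, those of miR-27 include the adipogenic receptor PPARG, and those of miR-24 include cell cycle genes.

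The sequences below show what separates the paralogs, since the comparisons between the clusters rest on those bases. They come from RefSeq (GRCr8) and were found for all 8 rows (297 of the 328 known miRNAs of the table). Each is written 5′ to 3′ with the seed in capitals.
miR-23a-3p: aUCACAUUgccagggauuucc
miR-23b-3p: aUCACAUUgccagggauuacc
miR-27a-3p: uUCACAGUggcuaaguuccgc
miR-27b-3p: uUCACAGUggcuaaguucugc
miR-24-3p: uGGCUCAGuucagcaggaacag
miR-23b-5p: gGGUUCCUggcaugcugauuu
miR-27b-5p: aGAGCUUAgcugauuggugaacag
miR-24-2-5p: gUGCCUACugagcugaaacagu
The miR-23 paralogs share their seed, as do the miR-27 paralogs, and each pair differs at 1 of 21 bases. Counted from the 5′ end, the difference between miR-23a-3p and miR-23b-3p is U19A and that between miR-27a-3p and miR-27b-3p is C19U. A read that stops before position 19 therefore cannot be given to one paralog of a pair, and how the authors' counting treated such reads is not given in the sources used here. MiR-24-3p has the same sequence in both clusters, so its row pools them. No other matched miRNA of the table carried the seed of any of these rows.

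The arms sit in their hairpins as follows, with the mature arms in capitals. The b cluster hairpins are shown because both arms of miR-23b and miR-27b were counted, and Mir27a because it is the paralog that went the other way.
Mir23b: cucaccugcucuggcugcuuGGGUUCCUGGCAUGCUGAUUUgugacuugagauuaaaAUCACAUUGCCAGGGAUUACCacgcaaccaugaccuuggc
Mir27b: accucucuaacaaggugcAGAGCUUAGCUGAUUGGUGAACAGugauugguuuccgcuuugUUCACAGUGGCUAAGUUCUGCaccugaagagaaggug
Mir27a: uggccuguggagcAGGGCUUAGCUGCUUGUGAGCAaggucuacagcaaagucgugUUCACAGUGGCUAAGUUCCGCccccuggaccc
In GRCr8 the a cluster is on chromosome 19 and the b cluster on chromosome 17, each with its 3 miRNA genes on the minus strand. The b cluster lies inside the span of the protein-coding gene Aopep, and no annotated gene spans the a cluster. Mir3074 overlaps the b cluster at Mir24-1 on the other strand. Its miRNA, the 5p arm of miR-27a and miR-24-1-5p were not analysed here.

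The 8 rows together held 6802 counts in the experimental library and 8440 in the control library. These sums are 0.120% (0.117 to 0.123, 95% by the exact Clopper-Pearson method) and 0.126% (0.123 to 0.129) of the counts of each library. In counts per 1000000 clean reads (CPM), the reads that the study kept after its quality filters, the sums were 939 and 966. The log2 ratio of the sums, experimental over control, was -0.040 (95% counting interval -0.087 to 0.006) with the clean reads as depth, an interval that includes 0. With the sums of the table as depth it was -0.07 (-0.12 to -0.03) and with edgeR's TMM normalization -0.22 (-0.27 to -0.17), so that a small difference of the whole group depends on the scaling. All intervals here cover counting error only, since reads without molecular identifiers are not independent molecules and animals were pooled. In pooled tissue, fewer cells of a type and less RNA per cell cannot be told apart.

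The order of levels was the same in both libraries. MiR-24-3p was the most abundant, at 439 CPM in the experimental library and 389 in the control library, ranks 51 and 50 of the 390 rows. MiR-23a-3p, miR-23b-3p and miR-27b-3p followed, at 213, 176 and 131 CPM in the control library. MiR-27a-3p (25.2 CPM, 95% exact Poisson interval 21.96 to 28.7) and miR-23b-5p (24.8 CPM, 21.6 to 28.4) were close in the control library, and their intervals overlapped. In the experimental library they stood apart, at 35.8 CPM (31.5 to 40.4) and 23.2 CPM (19.8 to 26.98). MiR-27b-5p and miR-24-2-5p were the least abundant, at 5.27 and 1.72 CPM in the control library. Ligation and amplification favour some small RNAs over others, so levels of different miRNAs compare only roughly.

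**Figure D1:**
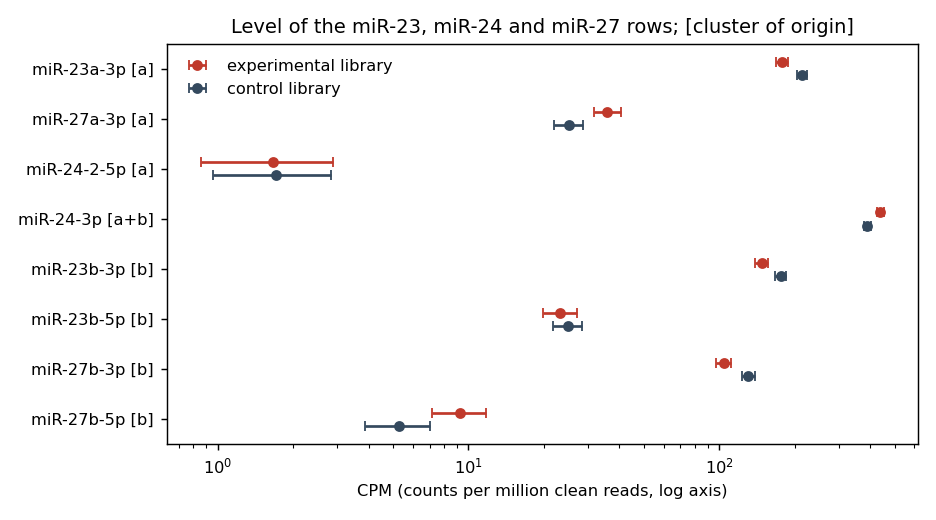
CPM of each row (log axis) in the experimental and the control library, with 95% exact Poisson intervals and the cluster of origin in brackets. MiR-27a-3p and miR-27b-5p lie further right in the experimental library, miR-23a-3p, miR-23b-3p and miR-27b-3p lie further right in the control library, and the intervals of miR-24-2-5p are the widest.

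Of the 8 rows, 7 reached 30 counts in at least 1 library, the minimum of the study's screen. None of the 7 passed that screen, which asked for a log2 ratio beyond 2 in size and, as applied here, a two-sided Fisher's exact p under 0.01. Over the 285 rows with 30 counts, 3.16% passed as higher in the experimental library and 1.05% as lower. No row of the 7 reached a log2 ratio of 1 in size either, against 10.2% of the 285 beyond 1 and 2.11% beyond -1. The differences were thus small, with 3 of 7 intervals wholly above 0 (40.4% of the 285 rows) and 3 of 7 wholly below 0 (22.8%). The median log2 ratio of the 7 was -0.10 and that of the 285 was 0.10, and the median size without sign was 0.26 and 0.36.

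MiR-23a-3p, from the a cluster, had 1293 counts in the experimental library and 1864 in the control library, which is 179 and 213 CPM. It was lower after SE, and the log2 ratio was -0.26 (95% counting interval -0.36 to -0.15). Its paralog miR-23b-3p had 1070 and 1536 counts, or 148 and 176 CPM, and its log2 ratio was -0.25 (interval -0.36 to -0.14). Both paralogs of miR-23 were therefore lower by nearly the same factor, 0.837 and 0.840 of the control level. As all p-values here, the Fisher's exact p of these rows compares the libraries and not the conditions. Adjusted over the 390 rows by the Benjamini-Hochberg method, the Fisher's exact p of miR-23b-3p was 4.13e-05.

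MiR-27a-3p had 259 counts in the experimental library and 220 in the control library, from a control library that was the larger, and thus 35.8 and 25.2 CPM. It was higher after SE, 1.42-fold (95% interval 1.18 to 1.71). On the log2 scale this was 0.51 (0.24 to 0.77), with an adjusted p of 0.000368 by Fisher's exact test. MiR-27b-3p had 753 and 1142 counts, or 104 and 131 CPM. It was lower, by a log2 ratio of -0.33 (-0.46 to -0.20), and the miR-27 paralogs thus went opposite ways. Summed over both paralogs, the miR-27 3p arms reached 1012 and 1362 counts, for a log2 ratio of -0.16 (-0.28 to -0.04). The direction of the sum was that of miR-27b-3p, the more abundant paralog.

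MiR-24-3p, made by both clusters, had 3180 and 3400 counts, or 439 and 389 CPM. Its log2 ratio of 0.17 (interval 0.10 to 0.24) depended on the scaling and was -0.01 with edgeR's TMM normalization (interval -0.08 to 0.06) and -0.10 with raw counts. No direction can be given for it. MiR-24-2-5p, the arm that marks the a cluster, had 12 and 15 counts, and no difference was detectable at this depth (log2 ratio -0.05, -1.28 to 1.14).

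The 5p arms of the b cluster are usually the less stable strands of their hairpins. MiR-23b-5p had 168 and 217 counts, or 23.2 and 24.8 CPM, and its log2 ratio, -0.10 (-0.40 to 0.20), was not distinguishable from 0. MiR-27b-5p had 67 and 46 counts, or 9.25 and 5.27 CPM. It was 1.76-fold higher after SE (95% interval 1.19 to 2.62; log2 ratio 0.81, interval 0.25 to 1.39; Fisher's exact test, adjusted p = 0.00697), while the 3p arm of the same hairpin was lower. MiR-27a-3p and miR-27b-5p were higher and both miR-23 3p arms and miR-27b-3p were lower under each of the 6 scalings tried. With raw counts the intervals of miR-27a-3p (-0.03 to 0.50) and miR-27b-5p (-0.02 to 1.12) included 0. The summed levels of vessel, blood and microglial miRNAs, given further on, were also higher after SE, though not for each listed miRNA. The neuronal and oligodendrocyte sums were not higher. Median log2 ratios, over rows reaching the study's minimum count, gave another order. They were 0.30 for the vessel and 0.53 for the neuronal list, above the 0.10 of all such rows. Below it were the blood and microglial lists at 0.04 and the oligodendrocyte list at 0.07. The part of these cell types in the differences was not tested.

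**Figure D2:**
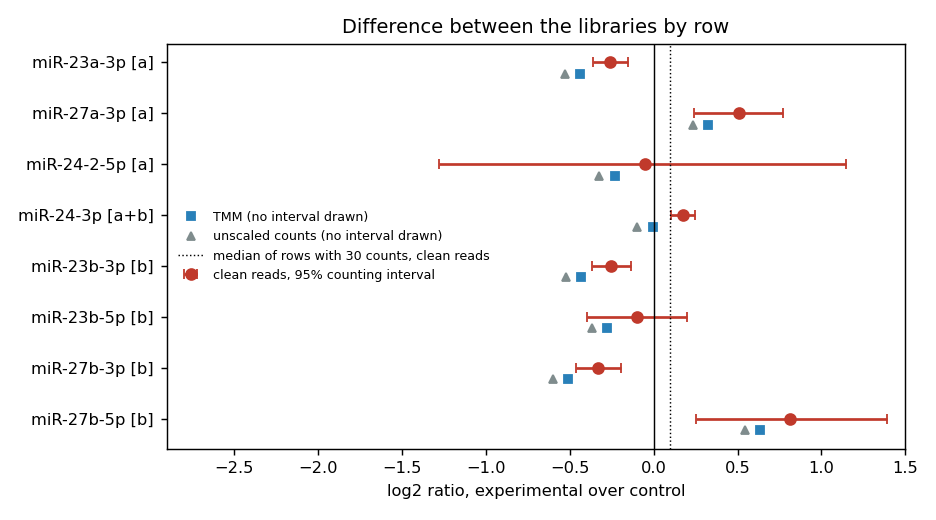
Log2 ratio of the experimental over the control library for each row, with clean reads as depth and 95% exact counting intervals, and the same ratios with TMM and with unscaled counts. The points of miR-27a-3p and miR-27b-5p stay right of 0 under the scalings drawn, those of miR-23a-3p, miR-23b-3p and miR-27b-3p stay left, and that of miR-24-3p crosses 0. The dotted line is the median of the 285 rows with 30 counts, 0.10.

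**Figure D3:**
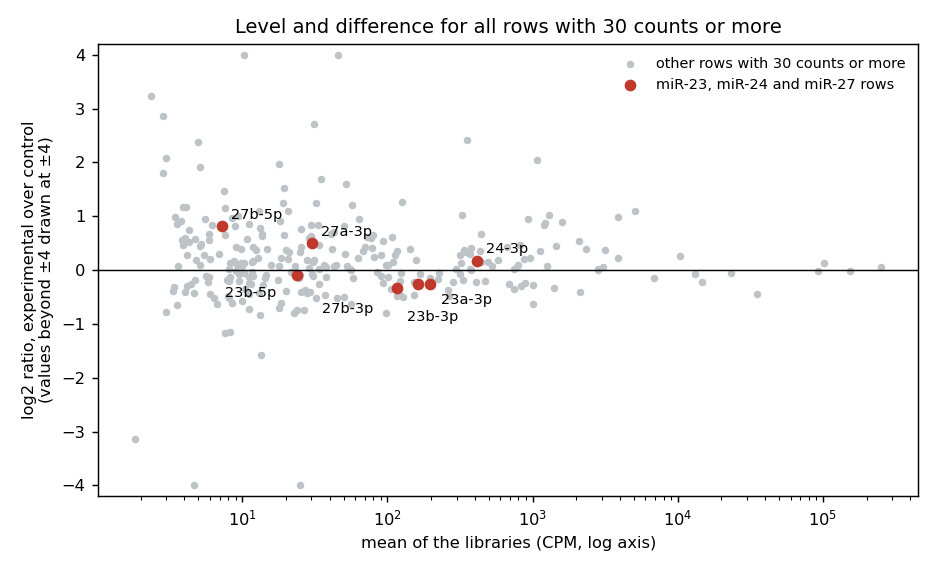
Log2 ratio against the mean CPM of the libraries (log axis) for the 285 rows with 30 counts or more, with the 7 miR-23, miR-24 and miR-27 rows in red. The red points lie between log2 ratios of -0.33 and 0.81, within the cloud of the other rows.

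Comparing rows with each other in the same library removes the scaling, because the library total cancels. Among the reads of the miR-23 3p arms, miR-23a made up 54.7% in the experimental library (52.7 to 56.7, 95% by the exact Clopper-Pearson method, as for the shares that follow) and 54.8% in the control library (53.1 to 56.5). The log2 odds ratio of paralog by library was -0.006 (interval -0.16 to 0.15; Fisher's exact test, p = 0.957). Among the reads of the miR-27 3p arms, miR-27a made up 25.6% (22.9 to 28.4) after SE and 16.2% (14.2 to 18.2) in the control library. The log2 odds ratio was 0.84 (interval 0.54 to 1.14), with a Fisher's exact p of 2.09e-08 and an adjusted p of 4.94e-08. The a and b paralogs thus kept their proportion for miR-23, within the width of that interval, and changed it for miR-27, and the intervals of these odds ratios did not overlap.

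The adjustment ran over 59 pairs of known miRNAs with 1 number, the same arm and different letters, of which 64.4% had an adjusted Fisher's exact p under 0.05. Many of those pairs, such as those of let-7, are far deeper, so a call alone says little. The size depends on depth too, because counting error alone spreads shallow pairs further from 0. Most of the 59 pairs combine members of the let-7, miR-30 and miR-181 families, many of them used repeatedly. The share above, and the median and ranks below, therefore describe mainly those families. The median size of the log2 odds ratio was 0.15 over the 59 pairs. The miR-27 pair was at rank 3 of 59 by size and the miR-23 pair at rank 59, the lowest. Only miR-99a-3p against miR-99b-3p (2.24) and miR-146a-5p against miR-146b-5p (-0.91) were further apart than the miR-27 pair. MiR-92a-3p against miR-92b-3p was close behind it, at 0.82 (interval 0.56 to 1.09). In 10 of the pairs the mature sequences have equal length and differ by 1 base, a subset looked at after the values were seen. Their median size was 0.07, the miR-27 pair was the most divergent of the 10, and the next was miR-30a-5p against miR-30e-5p at -0.36. The miR-27 pair also had the fewest counts of the 10. A misassignment of reads between near-identical paralogs was not tested here.

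The arms were compared in the same way. For miR-23b the 5p arm took 13.6% of the reads of both arms after SE (11.7 to 15.6) and 12.4% in the control library (10.9 to 14.0). The log2 odds ratio was 0.15 (interval -0.17 to 0.47; Fisher's exact test, p = 0.346), so the arm balance of miR-23b did not differ beyond counting error. For miR-27b the 5p share was 8.17% (6.39 to 10.3) after SE and 3.87% (2.85 to 5.13) in the control library. The log2 odds ratio was 1.14 (interval 0.56 to 1.73; Fisher's exact test, adjusted p = 0.000417 over 67 hairpins with both arms counted). Of these 67 hairpins, 35.8% had an adjusted p under 0.05. The median size was 0.52, and miR-27b stood at rank 10 of 67 and miR-23b at rank 54. The odds ratio does not say which arm of miR-27b moved. By the log2 ratios above the 5p arm was higher and the 3p arm lower, though with raw counts the 5p interval included 0. The 5p arm of miR-27b rests on 67 and 46 counts, the fewest of these paralog and arm contrasts.

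**Figure D4:**
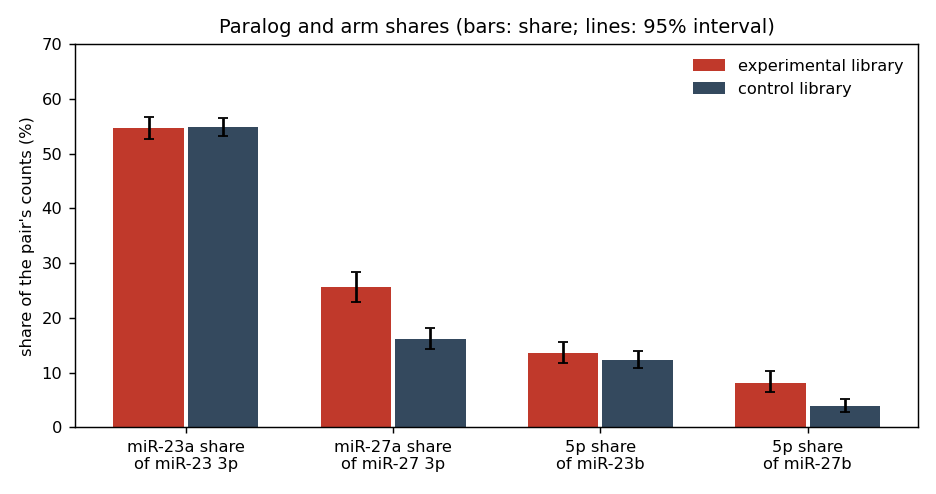
Share of each pair's counts, in percent, taken by miR-23a among miR-23 3p reads, by miR-27a among miR-27 3p reads, and by the 5p arm of miR-23b and of miR-27b, with 95% exact Clopper-Pearson intervals. The bars of the libraries are level for miR-23 (54.7% and 54.8%) and apart for miR-27a (25.6% and 16.2%) and for the 5p arm of miR-27b (8.17% and 3.87%).

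The summed a cluster rows (miR-23a-3p, miR-27a-3p and miR-24-2-5p) had 1564 and 2099 counts, and the summed b cluster rows (miR-23b and miR-27b, both arms) had 2058 and 2941. The a cluster made up 43.2% (41.6 to 44.8) of these reads after SE and 41.6% (40.3 to 43.0) in the control library. The log2 odds ratio was 0.09 (interval -0.04 to 0.22), which includes 0. The sum depends on which members enter it. Without the miR-23 rows the log2 odds ratio was 0.74 (interval 0.45 to 1.03), and without the miR-27 rows it was -0.02 (interval -0.17 to 0.12). The a and b clusters thus differed in their summed miR-27 rows, mostly miR-27b-3p on the b side, and not detectably in the others. MiR-27b-5p was itself higher after SE, like miR-27a-3p.

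Within a cluster the members lie in a row on the chromosome and are commonly transcribed as 1 primary transcript. A comparison of such neighbours was added after the values were seen and is a description, with no test. In the a cluster, miR-23a-3p had 4.99 counts for each count of miR-27a-3p after SE and 8.47 in the control library, a log2 odds ratio of -0.76 (interval -1.05 to -0.48). In the b cluster, miR-23b-3p had 1.42 counts for each count of miR-27b-3p after SE and 1.35 in the control library, a log2 odds ratio of 0.08 (interval -0.10 to 0.26). Neighbours in the a cluster therefore separated, while those in the b cluster kept nearly the same ratio. Over 184 pairs of miRNAs within 10 kb on 1 strand the median size was 0.44, so that the a cluster pair lay at rank 54 and the b cluster pair at rank 169. Most of these pairs combine miRNAs of the imprinted Dlk1-Dio3 region, such as miR-134-5p and miR-382-5p, many of them used repeatedly. The median and the ranks therefore describe mainly that region and not neighbours in general. Against miR-23a-3p, miR-24-3p was relatively higher after SE by 0.43 (interval 0.31 to 0.56) and against miR-23b-3p by 0.43 (interval 0.29 to 0.56), both as log2 odds ratios. Relative to miR-24-3p, miR-27a-3p was higher after SE, by a log2 odds ratio of 0.33 (interval 0.06 to 0.61). The contrasts with miR-24-3p were unplanned too, its row pools both clusters, and miR-27b-3p was not set against it.

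**Figure D5:**
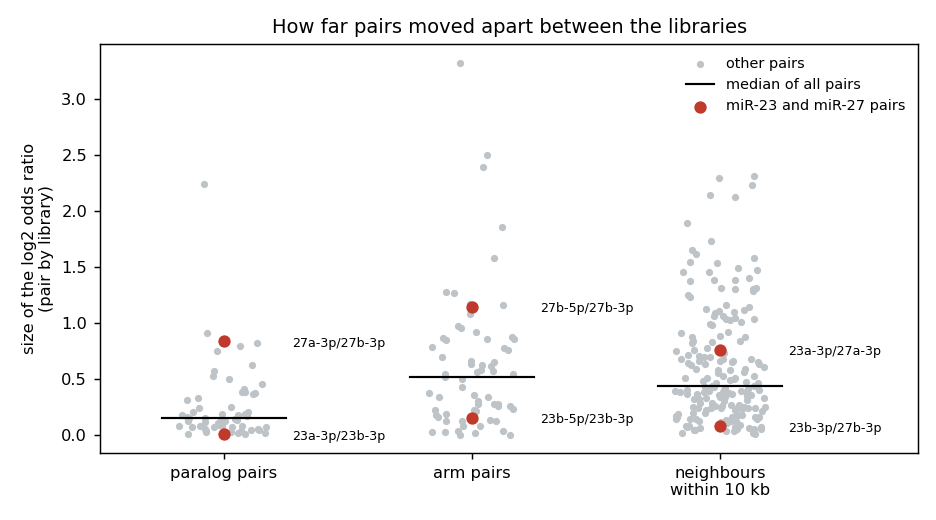
Size of the log2 odds ratio of pair by library for 59 paralog pairs, 67 arm pairs and 184 pairs of neighbours within 10 kb, with the miR-23 and miR-27 pairs in red and a line at the median. The paralog and arm pairs of miR-27 (0.84 and 1.14) lie above their medians of 0.15 and 0.52, and those of miR-23 (0.006 and 0.15) lie below.

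The seed of miR-27 overlaps that of miR-128-3p, a neuronal miRNA known to restrain excitability, shifted by 1 base. The run that is the seed of miR-128-3p occurs at bases 3 to 9 of both miR-27 paralogs, and 3 matched miRNAs of the table contain it. It is shown in capitals here.
miR-128-3p: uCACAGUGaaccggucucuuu
miR-27a-3p: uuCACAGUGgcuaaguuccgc
miR-27b-3p: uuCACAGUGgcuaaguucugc
The counts of miR-128-3p were 214423 after SE and 354286 in the control library, and it was lower, at a log2 ratio of -0.45 (-0.46 to -0.45). It outnumbered the miR-27 3p reads 212 times after SE and 260 times in the control library. Of the miRNAs with this run, only miR-27a-3p was thus higher after SE, at the lowest level of the 3.

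Among 69 other known miRNAs with at least 1000 counts in both libraries, those with the log2 ratio nearest to miR-23a-3p and miR-23b-3p, the most abundant rows made by 1 cluster alone, were miR-29c-3p (-0.25) and miR-323-3p (-0.26). With 1 value per library this likeness is a nearness of ratios and nothing more.

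Markers of cell types known to carry these miRNAs, or that the tissue could hold, moved as follows. Of 7 listed vessel miRNAs 4 reached 30 counts, 3 of them with intervals above 0 and none below, and the sum of the 5 in the table was 5008 CPM after SE and 3572 in the control library. MiR-222-3p (log2 ratio 0.94) and miR-221-3p (0.38) made up most of that sum, and both are also made by other cells than those of vessels. The endothelial miR-126 was not analysed here. Of 8 listed blood miRNAs 3 reached 30 counts, 1 with an interval above 0 (miR-451-5p, 196 and 100 counts) and none below, and the sum of the 5 in the table was 66.8 and 51.4 CPM. The counts of miR-150-5p were 48 and 81, at a log2 ratio of -0.48 (-1.03 to 0.05). Of 3 listed microglial and inflammatory miRNAs 2 reached 30 counts, and their sum of 399 and 322 CPM was nearly all miR-21-5p (389 CPM after SE, log2 ratio 0.33, 0.25 to 0.40). The other, miR-146a-5p, was counted 74 and 106 times, at a log2 ratio of -0.25 (-0.70 to 0.19). The oligodendrocyte list summed to 1563 and 1588 CPM, and of its 3 rows 1 had an interval above 0, 1 below and 1 including 0. The neuronal list summed to 37608 and 44561 CPM, with miR-124-3p and miR-128-3p both brain-enriched, abundant in each library. Of its 4 rows 3 were higher and miR-128-3p was lower. Over the rows with 30 counts, the median log2 ratio was 0.30 for the vessel list, 0.04 for the blood and the microglial lists, 0.07 for the oligodendrocyte list and 0.53 for the neuronal list, beside 0.10 for the 285 rows.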

How the data were processed

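Small RNA libraries of pooled rat hippocampal RNA, 1 per group, were compared. The values are raw counts as the authors deposited them, whole numbers whose totals differ between the libraries, although the file's header template asks for scaled signal. The submitters' processing notes name the genome build rn5, and the aligner and miRBase release are not given in the sources used here. The deposited p-values per miRNA are the authors' own comparison and were not used. GRCr8 served for sequences, names and neighbours only.

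Each count was scaled by the study's clean reads, 1 count being 0.138 CPM in the experimental and 0.114 CPM in the control library. Counts under 3 were set to 3, which concerned none of these rows. Ratios carry exact Clopper-Pearson intervals, and levels exact Poisson intervals, at 95%. Two-sided Fisher's exact tests were run on the whole table (row by library) and on pairs of rows with at least 30 counts each over the libraries, with Benjamini-Hochberg adjustment over all rows or all pairs of a kind. No replicate model could be fitted with 1 library per group. Alternatives were 5 other scalings, a pseudocount of 1, other minimum counts, a log2 threshold of 1, known miRNAs only, and coefficients of variation assumed at 0.2 and 0.4 (for the screen, in edgeR's exact test). Named miRNAs were all rows of the rule, those sharing a seed run, genomic neighbours, the 2 nearest in log2 ratio to the most abundant row specific to each cluster, and members of the cell type lists. The miRNAs and lists were chosen with earlier results of these data known. The interval and screen code was tested on simulated data. Intervals of pairs, TMM and size factors came from R 4.3.3 (edgeR 4.0.16, DESeq2 1.42.0), all else from Python 3.11.15 with pandas 2.3.3 and scipy 1.17.1.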

Additional observations from a re-analysis of the deposited data

How the results depend on the processing

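No paired analysis was possible because there is only 1 library in a group, and no replicate could be left out. The scaling shifts every log2 ratio alike, by -0.18 with TMM, -0.09 with DESeq2's size factors and -0.27 unscaled, and the median of the 285 rows with 30 counts went from 0.10 to -0.08, 0.01 and -0.17. Intervals wholly above 0 made up 63.9% of those beside 0 with clean reads, 44.8% with TMM, 54.5% with DESeq2's size factors and 36.1% unscaled. MiR-24-3p reversed with TMM (-0.0053) and unscaled (-0.097). Unscaled, miR-27a-3p (0.24) and miR-27b-5p (0.54) had intervals that included 0 and miR-23b-5p (-0.37) one below 0, so that 0 rows lay above 0 and 5 below. When each count was assumed to vary independently, with a coefficient of variation of 0.2 or of 0.4, 0 lay above and 0 below. At 0.2 the intervals of the miR-27 paralog contrast (0.84, interval -0.33 to 2.004), the miR-27b arm contrast (1.14, interval -0.12 to 2.40) and the miR-23a to miR-27a contrast (-0.76, interval -1.93 to 0.40) included 0. Spread of that size between pools, independent for each count, would thus cover the difference of each of the 8 rows and these contrasts. The a to b cluster contrast was 0.74 without miR-23 rows and reversed to -0.024 without miR-27 rows. The screen's count of 0 held under its 12 alternatives, none of which could have changed it given the log2 ratios. The largest log2 ratio in size was 0.81 with clean reads, and the largest shift between scalings was -0.27. EdgeR's exact test kept the threshold of 2. A lower minimum added only miR-24-2-5p (-0.05). A minimum of 100 counts could add no row, and all 8 rows are known miRNAs. These 12 alternatives are among the values counted as kept next, and say nothing about stability. Of 88 alternative values, 72 kept direction and side or, for counts, stayed within 1.5 times (rows above 0 went from 3 to 2 with TMM), and 16 did not. The log2 ratio of the summed rows, added after the data were seen, was -0.31 unscaled, its lowest. Depth limits miR-24-2-5p and miR-27b-5p most.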
